A study of Mus musculus with 18 samples.

Results

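The MYC, MAX and MXD network is a family of transcription factors that compete for the same partner and the same DNA. Its members were taken as the 10 genes of the deposited nascent RNA count table whose mouse symbol is Myc, Mycn, Max, Mlx, Mxd1, Mxd3, Mxd4, Mxi1, Mnt or Mga, out of 54232 genes listed. All 10 were measured, and all 10 passed the filter on low counts, Mycn through the populations in which it is high. Along the erythroid series of the mouse fetal liver the activators Myc and Mycn were lower in the most mature population, and the repressors Mxd1, Mxd3 and Mxi1 were higher, while the shared partner Max stayed between 79.3 and 118 CPM (counts as a share of the scaled library size) in all 18 libraries. Of the other repressors Mga was lower in that population, and Mxd4 and Mnt did not rise.

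MYC and MYCN bind DNA as dimers with MAX, mainly at the E-box CACGTG, recruit histone acetyltransferases and raise the transcription of genes for growth, ribosome assembly and metabolism. The MXD proteins, MXI1 and MNT pair with the same MAX and bring the SIN3-HDAC corepressor to the same sites, and MGA is a MAX partner in a Polycomb-type repressor complex. MLX is a relative of MAX that pairs with some MXD proteins, with MNT and with the glucose-responsive Mondo proteins, and in many lineages the exchange of MYC for MXD on MAX accompanies the exit from the cell cycle.

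Nascent RNA was labelled with 4-thiouridine (4sU), a uridine analogue built into new transcripts, purified and sequenced as 3 libraries from each of 6 sorted populations. All were wild-type C57BL/6 fetal livers of embryonic days e12.5 to e13.5, sorted by flow cytometry, cultured for a few hours and labelled in the same way. The 5 erythroid populations were lineage-negative and differed in the transferrin receptor CD71 and the red cell antigen Ter119, in the order S0-Low (CD71-, Ter119-), S0-Medium (CD71 medium, Ter119-), S1 (CD71 high, Ter119-), S2 (CD71 high, Ter119 medium) and S3 (CD71 high, Ter119 high). The study describes S0-Low as stem, progenitor and burst-forming cells, S0-Medium and S1 as early and late colony-forming erythroid cells, and S2 and S3 as maturing cells. The 6th population, Lin+, carried the lineage antigens (CD41, CD45R, CD3e, CD11b or Ly-6G/6C) and was labelled primary erythroblasts like the others. A sorted population is a mixture, so a smaller share of a cell type and less RNA per cell cannot be told apart.

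Libraries held between 9452476 (S0-Low replicate 3) and 40567976 counts. The summed level of 7 late erythroid markers was between 496 and 1050 CPM in S0-Low and between 22700 and 38700 CPM in S3, and that of 5 stem and progenitor markers was between 953 and 1330 CPM in S0-Low and between 1.38 and 10.7 CPM in S3. The Lin+ libraries went against their cell type label, with a summed level of 9 granulocyte and monocyte markers between 3630 and 6050 CPM and of the late erythroid markers between 270 and 350 CPM. Itgam, which encodes the CD11b of the gate, was at 0 counts in all 18 libraries, so it checks nothing here. S0-Low held the same granulocyte and monocyte markers at 512 to 891 CPM and S3 at 0.0575 to 2.30 CPM. Replicate 3 stood apart in the network genes. It had the highest level of Mxd1, Mxd3, Mxd4, Mxi1 and Mnt in 6 of 6 populations, the lowest level of Myc in 5 of 6 and the highest late erythroid marker sum in 5 of 6.

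The network can act on its own genes, so the sequence before each start was read from RefSeq (build GRCm38.p6), where 9 of the 10 members had an entry. Myc had none. An exact E-box (CACGTG, the same on both strands) lay within the 250 bases before or 50 bases after a start in Max, Mlx, Mnt and Mxd4, and 7.15% of 32851 such windows in the whole table hold one. The 4 E-boxes are shown in capitals, each read on the strand of its gene.
Max, chr12:76962236-76962261, minus strand: tgagcccggtCACGTGttagggggcc
Mlx, chr11:101087240-101087265, plus strand: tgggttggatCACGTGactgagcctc
Mnt, chr11:74830791-74830816, plus strand: ccacccaagcCACGTGtgcgcgcgcg
Mxd4, chr5:34187914-34187939, minus strand: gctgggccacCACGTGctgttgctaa
The E-box of Max crosses its start, and those of Mlx, Mnt and Mxd4 begin 40, 123 and 219 bases before theirs.

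Mycn, the member that fell furthest, is shown with the bases before its start. Capitals mark the spellings TTTGGCGC or TTTCGCGC of an E2F site, on either strand. It held 3 matches, of which 2 overlap, and 0.813% of all windows hold at least 1.
Mycn, chr12:12941837-12942086, minus strand: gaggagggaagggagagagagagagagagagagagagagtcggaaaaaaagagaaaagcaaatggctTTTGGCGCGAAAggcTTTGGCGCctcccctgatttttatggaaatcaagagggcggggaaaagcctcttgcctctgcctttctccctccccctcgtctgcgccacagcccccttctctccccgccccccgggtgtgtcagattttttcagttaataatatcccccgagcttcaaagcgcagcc

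Mxd1 and Mxd3, the repressors with the largest rise, held neither an E-box nor an E2F spelling in these windows, nor one of the GATA spellings, GATAA or GATAG after an A or a T, on either strand. Among the members, only Mlx held a GATA spelling, which 29.8% of all windows hold. Both held many copies of the GC box GGGCGG, counted on both strands with overlaps: 6 before the start of Mxd1 and 8 before that of Mxd3, where 35.7% of all windows hold at least 1 and 10.7% at least 3. Mnt, which did not rise, held 4 in its window, and of the 3 starts of Mxi1, which did, 2 held 4 and 1 held 1. The stretch of Mxd1 is the part that lies outside the RefSeq gene, and the 3 windows of Mxd3 are its doubled boxes, which lie inside the gene span of an earlier start. Capitals mark the GC boxes.
Mxd1, chr6:86669235-86669409, minus strand: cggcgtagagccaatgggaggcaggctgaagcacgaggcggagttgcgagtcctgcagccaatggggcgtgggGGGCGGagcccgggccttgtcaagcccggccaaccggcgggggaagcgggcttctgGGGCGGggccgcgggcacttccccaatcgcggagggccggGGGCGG
Mxd3, chr13:55329821-55329849, minus strand: ggctgggcaGGGCGGGGCGGacggggttc
Mxd3, chr13:55329797-55329825, minus strand: ggttcccatGGGCGGGGCGGggaggggcc
Mxd3, chr13:55329761-55329789, minus strand: ggcgaccggGGGCGGGGCGGgccctgtgc
A match to these letters is a description of the sequence and no measure of binding.

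**Figure D1:**
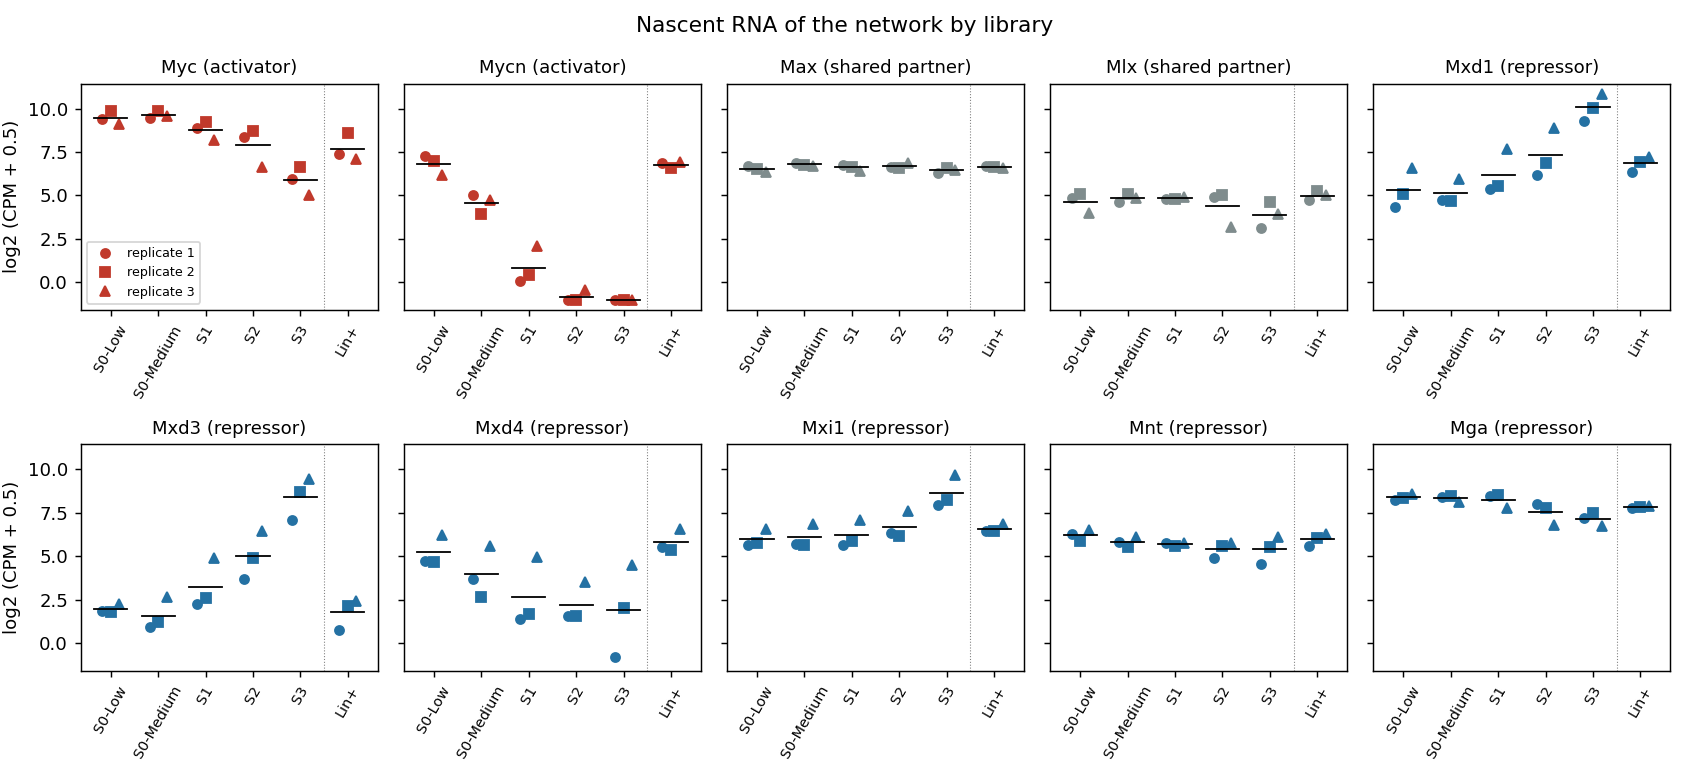
Each panel is 1 member, with log2 (CPM + 0.5) on the vertical axis and the 6 populations on the horizontal axis. Symbols are the 3 replicates and black bars their means. Within the erythroid series, the S3 symbols of Myc and Mycn lie below those of S0-Low and those of Mxd1, Mxd3 and Mxi1 above all others, Max is level, Mycn in Lin+ lies near S0-Low, and the triangles of replicate 3 lie highest in the panels of Mxd1, Mxd3, Mxd4, Mxi1 and Mnt.

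How the network differed between the first and the last population of the erythroid series was asked by comparing S3 with S0-Low in 1 edgeR quasi-likelihood fit of the 15 erythroid libraries. S0-Low also held the stem and progenitor and the granulocyte and monocyte markers given above, and their part in the differences was not tested. Of the 10 members 6 were called at an adjusted p under 0.05, 3 higher (Mxd1, Mxd3 and Mxi1) and 3 lower (Myc, Mycn and Mga). Over all 16555 genes tested 35.8% were called, 13.4% higher and 22.4% lower, and the counts of members are to be read beside these shares. With library totals in place of TMM factors 9 members were called, 3 higher and 6 lower, beside 44.6% of all genes (6.98% higher and 37.6% lower), and the median log2 fold change of all genes moved from -0.54 to -1.36. Without replicate 3 of every population, an alternative chosen after seeing the data, 7 were called beside 37.7% of all genes, with Mxd4 lower as the 7th. Mxd4 then held 1 and 77 counts in S3 and passed the filter through populations in which it is high, so its call is no evidence of its own. The study describes its nascent RNA replicates as biological, and the labels do not say which animals each came from.

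Among the activators, Myc, the general growth regulator of dividing progenitors (chr15:61985341-61990361), was at 683, 922 and 559 CPM in replicates 1, 2 and 3 of S0-Low. It was at 712, 928 and 762 CPM in S0-Medium, at 463, 598 and 293 CPM in S1 and at 328, 417 and 97.5 CPM in S2. In S3 it was at 62.1, 101 and 32.6 CPM. All S3 libraries lay below all S0-Low libraries, and S2 replicate 3 lay within the range of S3. The mean fell 11.1-fold from 721 ± 184 to 65.2 ± 34.3 CPM (SD, n = 3), with a log2 fold change of -3.47 (SE 0.52, adjusted p = 0.000171 by edgeR), and -2.93 relative to the median of all genes.

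Mycn, the family member known for stem and progenitor cells (chr12:12936093-12941836), was at 154, 124 and 72.7 CPM in S0-Low, at 32.7, 14.6 and 26.6 CPM in S0-Medium and at 0.534, 0.835 and 3.71 CPM in S1. It was at 0, 0 and 0.229 CPM in S2, the last from 5 counts, and at 0 counts in all 3 S3 libraries. The ranges of S0-Low, S0-Medium, S1 and S2 did not overlap. Set against 3 counts a library in S3, the limit a count of 0 allows, its mean was at least 657-fold lower in S3 than in S0-Low. Mycn passed the filter on low counts only through the populations in which it is high, so its call against S3 is no evidence of its own, and without it the calls are 5 of 9 members here, 5 in S3 against S1 and 4 in Lin+ against S3. Such limits cover counting error only, since reads were amplified by PCR without molecular identifiers. Between S0-Low and S1 the mean of Mycn fell 69.2-fold while that of Myc went from 721 to 451 ± 153 CPM.

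Of the shared partners, Max, the partner that MYC requires and MXD proteins share (chr12:76937269-76962323), was at 101, 92.3 and 79.6 CPM in S0-Low and at 79.3, 93.3 and 87.2 CPM in S3. The 2 ranges overlapped, with a log2 fold change of -0.07 (SE 0.25, adjusted p = 0.834). Relative to the median of all genes it was 0.47 higher, and with library totals it was called lower at -0.91 (adjusted p = 0.00840). Mlx (chr11:101086707-101092207) was at 28.2, 33.5 and 15.2 CPM in S0-Low and 8.25, 24.4 and 14.5 CPM in S3, ranges that overlap. Its log2 fold change was -0.71 (SE 0.55, adjusted p = 0.322). Mlx shares 385 exon bases, 19.3% of its own, with Psmc3ip on the other strand, which was at 29.5 to 50.2 CPM in S0-Low and 46.5 to 52.8 CPM in S3. The sources do not state whether counting used strand, and without strand the reads of these shared bases cannot be told apart.

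Among the repressors, Mxd1 (also called MAD1, a MAX partner induced as many cell types differentiate, chr6:86647044-86669234) was at 19.5, 33.3 and 93.4 CPM in S0-Low and at 26.5, 25.0 and 60.4 CPM in S0-Medium. It was at 40.6, 45.5 and 207 CPM in S1, at 71.7, 116 and 465 CPM in S2 and at 635, 1049 and 1839 CPM in S3. All 3 S3 libraries lay above every library of the other populations. The S3 mean was 24.1 times that of S0-Low, with a log2 fold change of 4.59 (SE 0.89, adjusted p = 0.00115).

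Mxd3, an MXD protein reported from cells in S phase (chr13:55325170-55329900), was low at the start, at 3.13, 2.89 and 4.32 CPM in S0-Low and 1.39, 1.80 and 5.72 CPM in S0-Medium. It was at 4.22, 5.61 and 29.7 CPM in S1 and at 12.2, 29.0 and 86.0 CPM in S2. In S3 it was at 135, 412 and 691 CPM, above every other library, and the mean was 120-fold that of S0-Low. The log2 fold change was 6.91 (SE 1.04, adjusted p = 0.000165), the largest rise among the members. Mxd3 shares 104 exon bases, 5.00% of its own, with Prelid1 on the other strand, and Prelid1 was at 28.3 to 97.3 CPM in S0-Low and 29.2 to 48.7 CPM in S3.

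Mxi1, a MAX partner that antagonises MYC (chr19:53310128-53373293), was at 49.9, 54.1 and 92.8 CPM in S0-Low, at 52.3, 50.3 and 116 CPM in S0-Medium and at 50.1, 57.8 and 133 CPM in S1. It was at 81.4, 70.9 and 192 CPM in S2 and at 249, 300.0 and 820 CPM in S3, so the S3 libraries again lay above all others. The S3 mean was 6.96 times that of S0-Low (log2 fold change 2.80, SE 0.58, adjusted p = 0.00191). Mxi1 shares 194 exon bases with Gm10197 on the other strand, which was at 0 counts in every S0-Low and S3 library.

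The other repressors did not rise. Mga, a very large protein with both a MAX-binding domain and a T-box (chr2:119872503-119970129), was at 304, 325 and 377 CPM in S0-Low and at 145, 181 and 106 CPM in S3. These ranges did not overlap, and Mga fell with a log2 fold change of -1.22 (SE 0.33, adjusted p = 0.0111), or -0.68 relative to the median of all genes. Mxd4, another MXD partner of MAX (chr5:34176580-34187710), was at 26.1, 25.2 and 75.5 CPM in S0-Low and at 0.0757, 3.47 and 22.4 CPM in S3, the first of these from 1 count. The ranges did not overlap, and the log2 fold change was -2.29 (SE 1.37, adjusted p = 0.198). Without S3 replicate 3, the library at 22.4 CPM, it was called lower at -4.55 (adjusted p = 0.0498 by edgeR). Mxd4 then held 1 and 77 counts in S3 and passed the filter through the populations in which it is high. That call is therefore no evidence of its own. Mnt, the most widely expressed MAX-binding repressor (chr11:74830806-74845725), was at 75.6, 57.7 and 91.8 CPM in S0-Low and at 22.6, 46.5 and 67.3 CPM in S3. Its ranges overlapped, and it had a log2 fold change of -0.72 (SE 0.39, adjusted p = 0.159). In all, 3 members lay higher in S3 without overlap and 4 lower (Myc, Mycn, Mxd4 and Mga), against 16.6% and 25.9% of all genes.

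**Figure D2:**
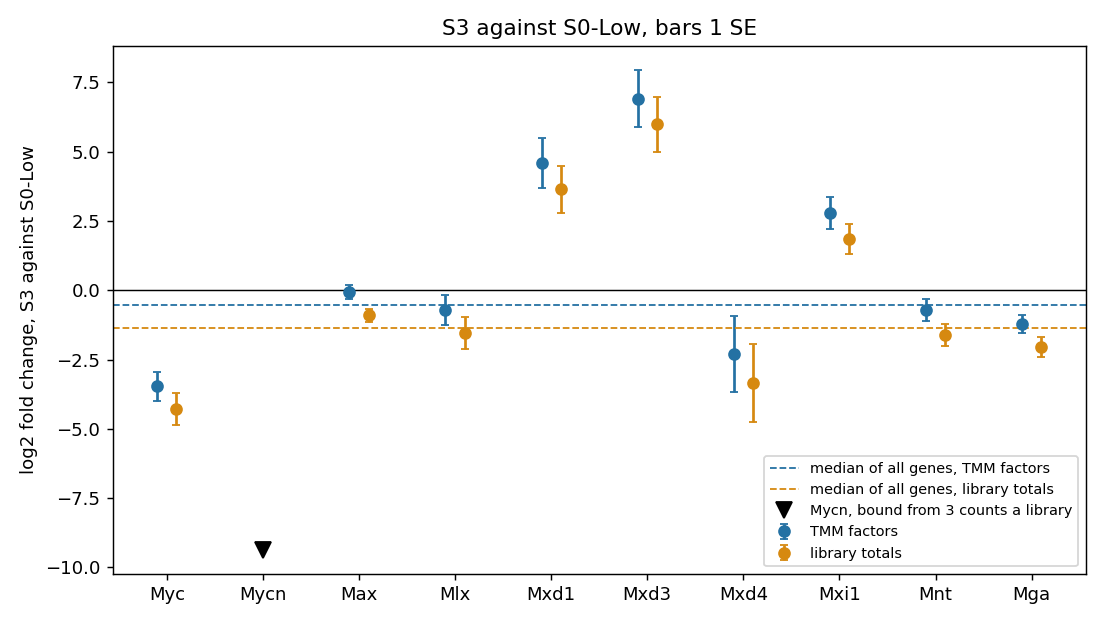
Fold changes of the members between S0-Low and S3, on the log2 scale, are drawn with 1 SE, in blue with TMM factors and in orange with library totals, beside the median of all genes as dashed lines at -0.54 and -1.36. Mxd1, Mxd3 and Mxi1 lie above 0 and the other members below it under both scalings, and every orange symbol lies to the lower side of its blue one, with Max at -0.07 and -0.91. The triangle is the bound for Mycn.

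Levels were compared between genes per kilobase of the longest annotated coding transcript, a scale that assumes counts come from spliced transcripts. In S0-Low, Myc led at 309 ± 78.7 CPM per kb (SD, n = 3), above Max at 45.4 ± 5.47 and Mycn at 43.8 ± 15.4, which did not differ beyond their spread. Mxd3 was last at 2.60 ± 0.576 CPM per kb. In S3 the order was Mxd3 at 311 ± 209, Mxd1 at 252 ± 131, Mxi1 at 88.5 ± 61.2, Max at 43.2 ± 3.51 and Myc at 27.9 ± 14.7 CPM per kb. Each of these 5 overlapped its neighbour within 1 SD, so the order of neighbours in S3 is not resolved.

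The balance of the network was described within each library by the counts of Mxd1, Mxd3, Mxd4, Mxi1 and Mnt together over those of Myc and Mycn, a ratio that library scaling cannot change. Mga is not in this sum. In S0-Low the repressor counts were 0.208, 0.166 and 0.566 times the activator counts. The ratios were 0.199, 0.137 and 0.378 in S0-Medium, 0.323, 0.264 and 1.53 in S1 and 0.603, 0.639 and 8.26 in S2. In S3 they were 16.8, 17.9 and 105. Activator counts were the larger in all 6 libraries of the 2 S0 populations, and repressor counts exceeded activator counts in every S3 library. S1 and S2 were split, with replicate 3 above 1 and replicates 1 and 2 below it.

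Which side of 1 a library lay on depended on what was summed. With counts per kilobase, the scale on which genes can be compared, the S0 ratios lay between 0.0698 and 0.303. On that scale S1 was at 0.169, 0.141 and 0.887, all below 1, S2 was at 0.339, 0.401 and 5.18, and S3 was at 10.9, 14.0 and 78.3. With Mga added to the repressors, an alternative chosen after seeing the data, 5 of the 6 S0 libraries lay below 1, and S0-Low replicate 3 was at 1.16. S1 was then at 1.09, 0.881 and 2.27, S2 at 1.37, 1.17 and 9.39, and S3 at 19.1, 19.7 and 109. The S3 libraries had the highest ratios under all 3 sums.

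For the sum without Mga, the log2 mean started at -1.89 ± 0.94 (SD, n = 3) for S0-Low and was -2.20 ± 0.74 for S0-Medium. It was -0.98 ± 1.39 for S1, 0.56 ± 2.16 for S2 and 4.98 ± 1.50 for S3. Replicate 3 had the highest ratio in 6 of 6 populations. No test was made, because the score sums members chosen with these data known.

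**Figure D3:**
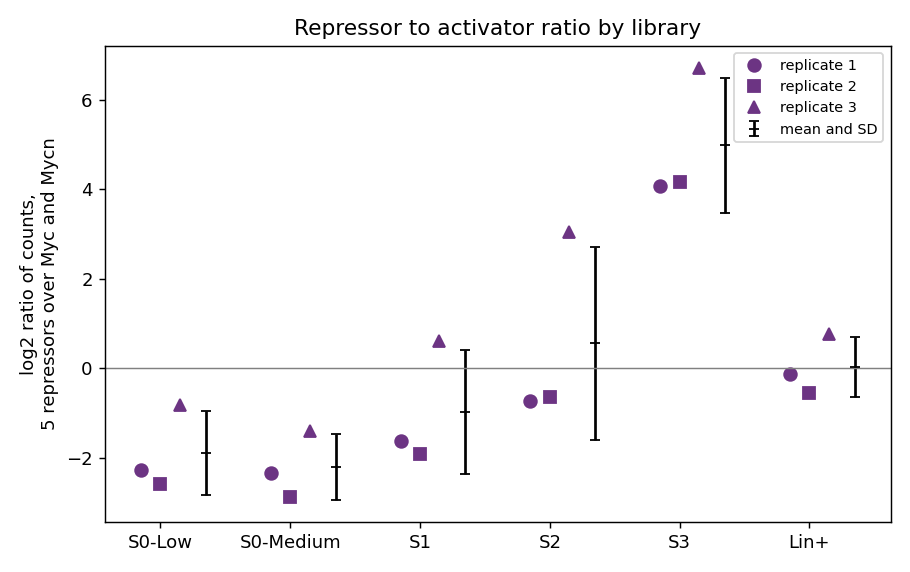
Each symbol is the log2 ratio of summed repressor to summed activator counts in 1 library, by population, with the mean and SD beside each group of 3. The 3 S3 libraries lie between 4.07 and 6.72 and the S0-Low libraries between -2.59 and -0.82. In S2, replicate 3 at 3.05 lies apart from the other two.

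Where in the series the members changed was asked first step by step. For the 3 steps up to S2 (S0-Medium against S0-Low, S1 against S0-Medium, and S2 against S1) edgeR called 0 of 10 members and 0% of the 16555 genes. At an unadjusted p under 0.05 it gave 1, 2 and 1 members, beside 3.26%, 6.86% and 4.03% of all genes. Same-numbered libraries deviated together at these steps. Blocked by replicate number, edgeR called 0 members at each, beside 22, 28 and 0 of 16555 genes higher and 1, 29 and 0 lower. Its unadjusted p was then under 0.05 for 1, 4 and 6 members, beside 897, 1584 and 1119 genes. DESeq2 called 0, 1 and 1 members, beside 0.309%, 2.35% and 0.983% of the genes it tested. In the edgeR fit without the block, the member nearest to a call was Mycn between S0-Medium and S1, whose mean fell from 24.6 ± 9.19 to 1.69 ± 1.75 CPM (SD, n = 3; log2 fold change -3.87, SE 0.95, adjusted p = 0.220). Mycn was the member that DESeq2 called at this step and the next, and since it is tested only through the populations in which it is high (S2 held 0, 0 and 5 counts) these calls are no evidence of their own. Mxd3 between S0-Medium and S1 had a log2 fold change of 2.15 (SE 0.84, adjusted p = 0.572). With the block Mxd3 was nearer to a call than Mycn, at 1.93 (adjusted p = 0.0722 by edgeR, and 0.0776 for Mycn). Ranges of Mycn did not overlap at any of these 3 steps, at which 11.8%, 17.1% and 11.4% of all genes did not overlap. Those of Myc did not overlap between S0-Medium and S1, and those of Max did not overlap at the step before, with S0-Medium above S0-Low.

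From S2 to S3, 3 members were called beside 9.35% of all genes (3.26% higher and 6.09% lower): Myc lower (log2 fold change -2.10, SE 0.50, adjusted p = 0.0160), and Mxd3 (3.29, SE 0.87, adjusted p = 0.0281) and Mxi1 (2.00, SE 0.56, adjusted p = 0.0367) higher. With library totals 2 members were called beside 15.4% of all genes, Myc lower and Mxd3 higher, and Mxi1 was at 1.46 (adjusted p = 0.0759). Mxd1 had a log2 fold change of 2.44 (SE 0.81, adjusted p = 0.0698), and with the replicate number as a block it was called at 2.78 (adjusted p = 6e-05), giving 4 members beside 18.6% of all genes. Libraries of S2 and S3 did not overlap for Mxd1, Mxd3 and Mxi1, which were higher, nor for Max, which was lower, beside 8.99% and 14.2% of all genes. None of the 3 calls held when S2 replicate 1, S2 replicate 2 or S3 replicate 3 was left out, where 3.95%, 3.94% and 4.99% of all genes were called, or when only these 6 libraries were fitted, where 0.823% were. Without S3 replicate 3 the log2 fold changes were -1.80 for Myc, 2.68 for Mxd3 and 1.25 for Mxi1 (adjusted p = 0.0615, 0.0972 and 0.196 by edgeR). Over all 6 libraries left out in turn they kept their direction, between -2.57 and -1.71 for Myc, 2.68 and 4.31 for Mxd3 and 1.25 and 2.58 for Mxi1.

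From S1 to S3, 6 members were called beside 19.3% of all genes (7.21% higher and 12.1% lower). With library totals 7 were, 3 higher and 4 lower with Max added (-0.81, adjusted p = 0.0229), beside 3.54% of all genes higher and 23.6% lower. Myc was lower at a log2 fold change of -2.79 (SE 0.51, adjusted p = 0.00179) and Mga at -1.12 (SE 0.33, adjusted p = 0.0289), and the mean of Mycn was at least 9.50-fold lower. That bound rests largely on S1 replicate 3, at 3.71 CPM beside 0.534 and 0.835 CPM in replicates 1 and 2. Mxd1 was higher at 3.59 (SE 0.85, adjusted p = 0.00849), Mxd3 at 4.97 (SE 0.94, adjusted p = 0.00227) and Mxi1 at 2.51 (SE 0.57, adjusted p = 0.00712). The call of Mga did not hold without S1 replicate 1, S1 replicate 2, S3 replicate 1 or S3 replicate 3, with adjusted p between 0.0622 and 0.108. S3 is shared by the 3 comparisons, and the values above stand side by side, not as independent evidence.

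Whether the lineage-positive cells resembled S0-Low or S3 in the network was asked with all 18 libraries in 1 fit of 17755 genes. Against S3, 5 members were called beside 42.2% of all genes (28.2% higher and 14.1% lower). Myc was at 169, 380 and 136 CPM in Lin+, above every S3 library (log2 fold change 1.81, SE 0.51, adjusted p = 0.00959), a call that did not hold without Lin+ replicate 2 (1.23, adjusted p = 0.0704). Mycn was at 116, 93.5 and 121 CPM, at least 619-fold higher than in S3. Mxd1 was at 81.7, 123 and 150 CPM (log2 fold change -3.31, SE 0.80, adjusted p = 0.00325). Mxd3 was at 1.18, 3.95 and 4.83 CPM (-6.95, SE 1.04, adjusted p = 5.57e-05) and Mxi1 at 85.9, 87.8 and 113 CPM (-2.26, SE 0.54, adjusted p = 0.00305), and no Lin+ library of these 3 genes reached S3, as was the case for 17.3% of all genes. Without overlap 6 members lay higher in Lin+ than in S3 (Myc, Mycn, Max, Mlx, Mxd4 and Mga), as did 6539 of 17755 genes. DESeq2 called 9 members beside 48% of all genes, and library totals all 10 beside 47.7%, with the median log2 fold change of all genes at 0.69 under TMM factors and 1.47 under library totals.

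Against S0-Low, 0 of 10 members were called in Lin+, beside 0.715% of all genes. At an unadjusted p under 0.05 there was 1, beside 9.85% of all genes. It was Myc, at a log2 fold change of -1.66 (SE 0.51, adjusted p = 0.172), and DESeq2 called 0 members beside 3.68% of all genes. Myc and Mga had no overlap, with all Lin+ libraries below all S0-Low libraries, as did 6.96% of all genes. Mga was at 215, 232 and 234 CPM in Lin+. With the replicate number as a block 2 members were called beside 1.93% of all genes, Myc lower at -1.77 (adjusted p = 0.00585) and Mxd1 higher at 1.61 (adjusted p = 0.0186). Without replicate 3 of every population Mxd1 alone was called, at 1.94 (adjusted p = 0.0349), beside 1.09% of all genes. Mycn was at a mean of 110 ± 14.6 CPM in Lin+ and 117 ± 41.2 CPM in S0-Low, with a log2 fold change of -0.09 (SE 0.72, adjusted p = 0.999). The repressor to activator ratio of Lin+ was 0.922, 0.679 and 1.71, a log2 mean of 0.03 ± 0.68 (SD, n = 3), and all 3 lay above the S0-Low libraries. Markers of other cells also differed between Lin+ and S0-Low. Beside the granulocyte and monocyte markers given above, summed levels in Lin+ and S0-Low were 72.4 to 108 and 4.84 to 8.14 CPM for 5 macrophage markers, 258 to 709 and 32.6 to 142 CPM for 5 megakaryocyte markers, and 81.0 to 170 and 21.5 to 32.2 CPM for 3 mast cell and basophil markers. The 4 hepatocyte markers went the other way, at 0.809 to 3.37 CPM in Lin+ and 5.79 to 9.05 CPM in S0-Low. The 4 lymphoid markers were at 0 to 2.63 and 0 to 0.543 CPM. The stem and progenitor markers were at 970 to 1340 CPM in Lin+, a range that overlaps that of S0-Low. The part of these markers in the network's differences was not tested.

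**Figure D4:**
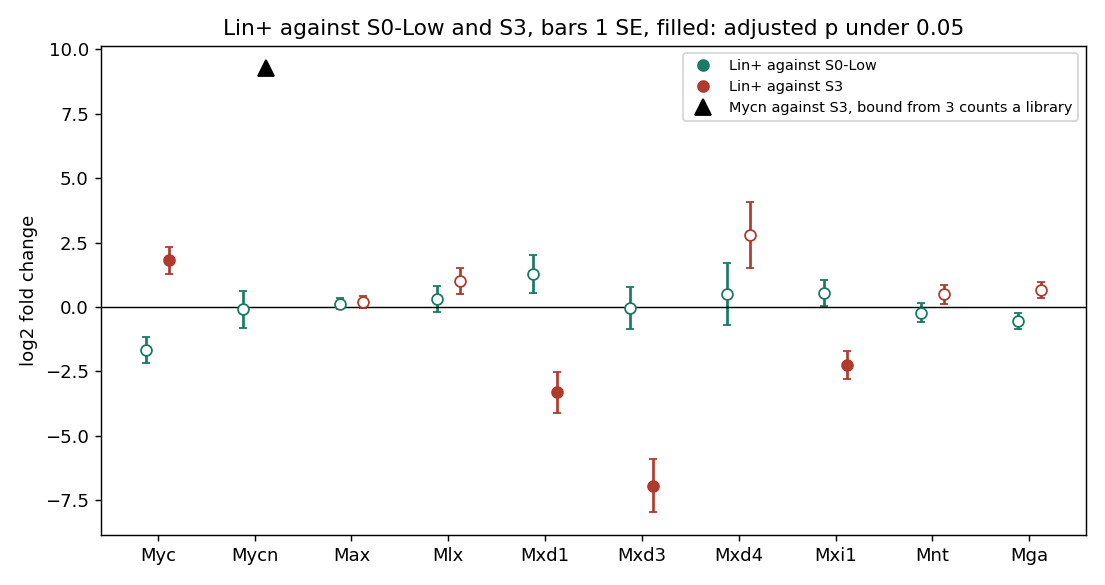
The log2 fold changes of the members in Lin+ against S0-Low (green) and against S3 (red) are drawn with 1 SE, with filled symbols for an adjusted p under 0.05. The green symbols are all open, and the filled red ones are Myc above 0 and Mxd1, Mxd3 and Mxi1 below it. The triangle is the bound for Mycn against S3.

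The genes around the network were read from lists of textbook membership. Of 16 genes known as activated by MYC, 10 were lower in S3 than in S0-Low and 2 higher, beside 22.4% and 13.4% of all genes, with a median log2 fold change of -2.51 beside -0.54 for all genes. The largest falls were of Srm, the spermidine synthase (-4.62, adjusted p = 0.0187), with 1 S3 library at 0 counts and the highest at 10.6 CPM, Ldha, the lactate dehydrogenase of glycolysis (-4.44, adjusted p = 0.00177), Polr1b, a subunit of RNA polymerase I (-3.76, adjusted p = 0.00209) and Apex1, a DNA repair enzyme (-3.13, adjusted p = 0.000308). Both genes that rose are metabolic enzymes. Odc1, the rate-limiting enzyme of polyamine synthesis, was at 71.6 to 335 CPM in S0-Low and 1400 to 2160 CPM in S3 (log2 fold change 3.01, adjusted p = 0.000407), and Shmt2, of mitochondrial folate metabolism, had a log2 fold change of 1.73 (adjusted p = 0.00857). With library totals 14 genes were lower and 1 higher, beside 37.6% and 6.98% of all genes. Replicate 3 stood apart in this list too, with the lowest level of all 16 genes in S0-Low and of 15 in S3. Without replicate 3 of every population 14 genes were lower and 2 higher, beside 24% and 13.7% of all genes.

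Of 5 genes known as repressed by MYC, 2 were higher and none lower, beside the same 13.4% and 22.4% of all genes. Gadd45a, a stress and growth arrest gene, was at 21.8 to 78.9 CPM in S0-Low and 873 to 2680 CPM in S3 (5.24, adjusted p = 0.000116), and Cdkn1a, which encodes the cell cycle inhibitor p21, had a log2 fold change of 2.44 (adjusted p = 0.0279). The list's median was 2.23, and 1.21 with library totals, which called 1 higher beside 6.98% of all genes. Without replicate 3 of every population 3 were higher, beside 13.7% of all genes. Of 9 genes that govern the turnover of MYC protein, 3 were higher, beside 13.4% of all genes: the kinases Pim1 (4.10, adjusted p = 0.000132), Aurka (2.08, adjusted p = 0.00108) and Gsk3b (1.19, adjusted p = 0.0118). The deubiquitinase Usp36 was lower (-2.30, adjusted p = 0.0325), 1 of 9 beside 22.4%. With library totals 2 were higher and 2 lower, beside 6.98% and 37.6% of all genes, and the list's median changed sign, from 0.51 to -0.39.

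Of 11 MYC coactivators, Ep400, an ATPase of the TIP60 complex, was higher (0.90, adjusted p = 0.0402), and 3 were lower, beside 13.4% and 22.4% of all genes: the acetyltransferase Kat2a (-3.54, adjusted p = 0.0273), with 1 S3 library at 0, and the ATPases Ruvbl2 (-2.14, adjusted p = 0.0157) and Ruvbl1 (-1.59, adjusted p = 0.0161). With library totals none was higher and 6 were lower, beside 37.6% of all genes lower, and the list's median was -0.36 with TMM factors. Without replicate 3 of every population none was higher and 6 were lower, beside 13.7% and 24% of all genes. Of the 10 SIN3-HDAC corepressor genes with which the MXD proteins work, edgeR called 0 in either direction, beside 35.8% of all genes, with log2 fold changes between -0.68 and 0.72 and a median of -0.04, and with library totals 5 were lower beside 37.6%. Without replicate 3 of every population 1 was higher and 1 lower, beside the same 13.7% and 24%. Of 9 partners of MGA, 1 was lower, Pcgf6, the Polycomb subunit that binds MGA (-1.57, adjusted p = 0.0313), beside 22.4% of all genes, and with library totals 5 were, beside 37.6%. The median of the list was -0.45, near the -0.54 of all genes.

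Of the network's relatives outside the 10 members, Mycl, the 3rd MYC gene, was at 3.72 to 7.55 CPM in S0-Low and at 0 counts in S3, at least 31.2-fold lower. Mlxip, which encodes the Mondo protein MondoA, fell from 99.0 to 104 CPM to 4.13 to 33.8 CPM (log2 fold change -2.68, adjusted p = 0.00301). Mlxipl, at 0 to 6 counts in S0-Low and 0 in S3, was too low to be tested. The 3 known targets of MLX and the Mondo proteins went separate ways: Arrdc4, an arrestin that limits glucose uptake, was lower (adjusted p = 0.00200), at 18.3 to 51.8 CPM in S0-Low and in S3 at 0 counts in 2 libraries and 1.31 CPM in the other, Pklr, the pyruvate kinase of red cells and liver, was higher (3.04, adjusted p = 0.000544), and Txnip, a related arrestin, had a log2 fold change of -0.09 (adjusted p = 0.917). In Lin+ against S0-Low none of these lists had a called gene but this last one, in which Pklr was lower (-3.65, adjusted p = 0.00698).

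**Figure D5:**
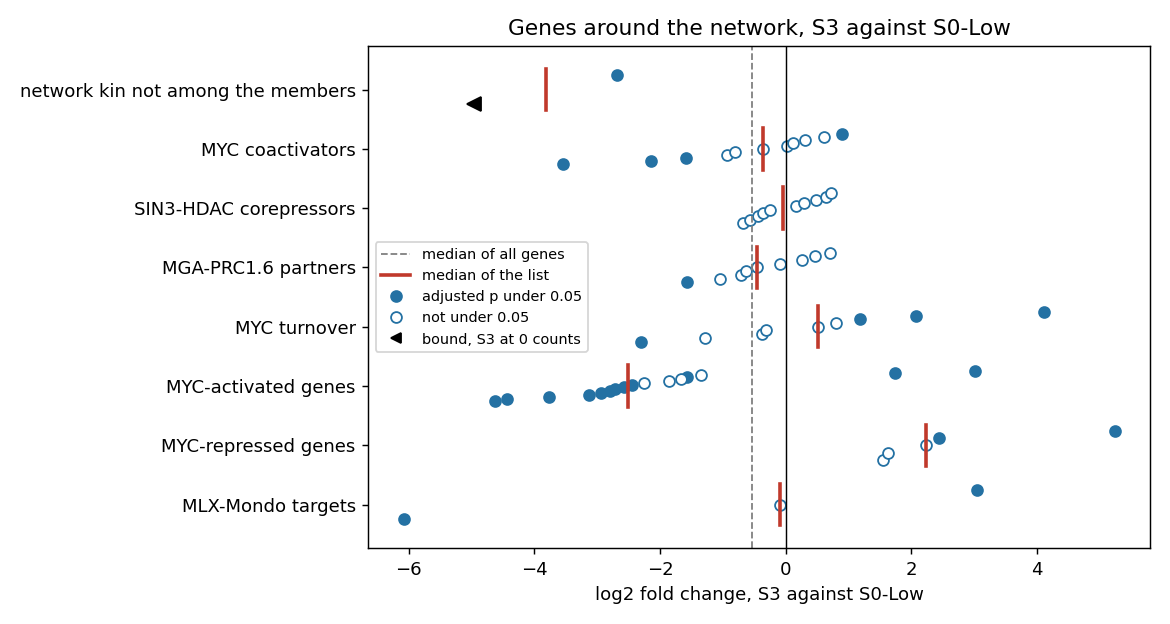
Each symbol is 1 gene of a list, placed by how far S3 lies from S0-Low on the log2 scale, filled where the adjusted p is under 0.05. The triangle is the bound of Mycl, red bars are list medians and the dashed line is the median of all genes at -0.54. The MYC-activated genes lie mostly to its left with Odc1 and Shmt2 far to the right, and the SIN3-HDAC genes lie around 0.

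The genes whose levels followed a member most closely over the 18 libraries were ranked by Pearson's r of log2 (CPM + 0.5) among 10710 well-measured genes. The points share libraries and population structure, so r is a description. For Myc they were Gm15915 (r = 0.954), 9430008C03Rik (0.938) and Morc4 (0.938), for Mycn they were Pear1 (0.990), Ccnjl (0.987) and Cyth4 (0.987), and for Mxi1 they were Ezh1 (0.982), Stx5a (0.979) and Trim56 (0.977). Max, which varied little, had its closest at Vac14 (0.815), Ube2g1 (0.810) and Snx19 (0.806).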

How the data were processed

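The members and the lists of related genes were chosen with earlier results of these data known. The authors quantified paired-end reads of a stranded library kit with kallisto 0.43.0 (per the submitters' processing notes, which also name GRCm38) and deposited whole-number counts per gene, neither normalized nor pooled over replicates. Whether counting used strand, the transcript set and the treatment of introns are not given in the sources used here. No column was left without a sample.

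Populations and replicate numbers came from the titles. Counts were tested in R 4.3.3 with edgeR 4.0.16: TMM factors, filterByExpr, population as the only factor, two-sided quasi-likelihood tests and Benjamini-Hochberg adjustment over all genes tested, at 0.05. Erythroid comparisons used the 15 erythroid libraries (common biological coefficient of variation 0.795) and Lin+ comparisons all 18 (0.771). The SE is the absolute log2 fold change over the root of F. Levels are CPM with TMM factors of the 18 libraries, so folds of means differ a little from fitted values. The zero limit is 3 counts a library, 0.0622 to 0.249 CPM. Scripts were tested on simulated counts.

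Same-numbered libraries deviated together (every correlation over 0.1) in the comparisons of S3 with S2, S3 with S1, the 3 successive early steps and Lin+ with S0-Low, but not of S3 with S0-Low (0.081, 0.131 and 0.105) or Lin+ with S3 (0.091, 0.121 and 0.160). The labels do not say what a number stands for.

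Named genes are all 10 members, up to 4 genes of each list with the largest called change in S3 against S0-Low, every gene of the 3-gene lists, and the 3 closest genes of Myc, Mycn, Max and Mxi1. Odc1 and Shmt2 were named as the only genes of the MYC-activated list called higher, after their values were seen. Alternatives were DESeq2 1.42.0, RLE factors, library totals, other filters, a robust fit, the replicate block, other sets of libraries, globin genes left out and each replicate left out. Coordinates and promoter sequences are RefSeq's (GRCm38.p6), and transcript lengths, exon overlaps and shared 31-base stretches, at most 0.906% of a member, come from GENCODE M1. Python 3.11.15 with pandas 2.3.3, numpy 2.4.6 and matplotlib 3.10.9 was used.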

Additional observations from a re-analysis of the deposited data

How the results depend on the processing

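Of 134 recomputed counts of members called, 120 stayed within 1.5 times the reported count. In S3 against S2 the count was 0 with only the 6 libraries compared, beside 0.823% of all genes, and between 0 and 4 with 1 replicate left out. In S1 against S0-Medium it was 2 without the filter on low counts, beside 82 of 28888 genes higher and 245 lower. It was 1 with DESeq2, beside 2.35% of all genes, and 1 with all 18 libraries, beside 4 of 17755 genes higher and 121 lower. In S2 against S1 it was 1 without the filter, beside 17 of 28888 genes higher and 60 lower, and 1 with DESeq2, beside 0.983%. In Lin+ against S0-Low it was 1 without the filter, beside 311 of 30157 genes higher and 82 lower. It was 2 with the replicate block and 1 without replicate 3 of every population, beside 1.93% and 1.09% of all genes. In Lin+ against S3 it was 10 with library totals and 9 with DESeq2, beside 47.7% and 48% of all genes. With 1 replicate left out the counts lay between 6 and 7 in S3 against S0-Low, between 5 and 6 in S3 against S1, between 4 and 6 in Lin+ against S3, and at 0 elsewhere.

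The replicate block, where same-numbered libraries were not shown to pair, gave 7 members in S3 against S0-Low, with Mxd4 called at -3.22 (adjusted p = 0.0119 by edgeR). Of 16555 genes 2640 were then higher and 4374 lower. In Lin+ against S3 the block gave 7, with Mxd4 and Mga added, beside 5693 of 17755 genes higher and 2845 lower. Mxd4 held 1, 77 and 389 counts in S3 and passed the filter through other populations, so its calls here are no evidence of their own. The block changed no other member call than those given here and beside the results. The difference of the repressor to activator ratio between S3 and S0-Low was 6.88 on the log2 scale, between 6.01 and 7.41 with 1 replicate left out, and 9.56 with the mean of the members' logs in place of their sums and 5.66 with Mga among the repressors, and that between Lin+ and S0-Low was 1.93, between 1.56 and 2.46.

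Of 626 recomputed log2 fold changes of members 10 reversed, all in Lin+ against S0-Low where the reported values were near 0 and uncalled. Mycn (-0.09) became 0.0026 with RLE factors and 0.0030 with DESeq2, and lay between -0.34 and 0.16 with 1 replicate left out. Mxd3 (-0.04) became 0.027 with RLE factors, 0.048 without the filter, 0.012 with DESeq2 and 0.020 with at least 10 counts in every library, and lay between -0.40 and 0.36 with 1 replicate left out. A further 26 fold changes passed the threshold that the reported value missed, and 18 no longer passed it, 6 and 13 of them in S3 against S2. The causes were not tested. Under the filter of at least 10 counts in every compared library, Mycn was not tested in comparisons with S2 or S3. Mxd4, at 1 count in S3 replicate 1, was not tested in those with S3. The shallowest library, S0-Low replicate 3, limits what can be seen of low genes such as Mxd3.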
